A study of Homo sapiens with 4 samples.

Results

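Cadherins are membrane proteins whose extracellular part is a chain of calcium-binding cadherin repeats. Classical cadherins join neighbouring cells and bind catenins inside the cell, protocadherins act in selective cell recognition, and the very large FAT, DCHS (Dachsous) and CELSR (Flamingo) proteins act in planar cell polarity and growth control. Many protocadherin genes carry the whole extracellular part in 1 large exon, and the PCDHA and PCDHG genes are spliced from a private first exon onto 3′ exons that all genes of the cluster share. Loss or exchange of cadherins is a hallmark of epithelial-mesenchymal transition, the process studied in these cells.

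The genes described here were all protein-coding RefSeq genes named CDH with a number, PCDH, FAT1 to FAT4, DCHS1 and DCHS2, or CELSR1 to CELSR3, without CDH1 and CDH2. There were 96 of them among 20056 protein-coding genes. They were read in 1 list of m6A peaks from MDA-MB-231, an established triple negative breast cancer cell line. Poly(A) RNA was fragmented, and 2 libraries immunoprecipitated with an anti-m6A antibody (IP) were compared with 2 input libraries. All 4 libraries carry the name shNS in their titles, their labels name no further agent or dose, and the treatment field of the IP libraries reads IP-YTHDC1 although the protocol names the m6A antibody.

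The list held 20261 peaks of 10140 gene IDs. Each peak has a position, its exon blocks and a score, read here as the peak caller's p-value of IP against input, so that a smaller score means a stronger peak. An FDR from the same caller is also possible. The list has 1 score per peak and names no library, so no value has a spread between libraries and no difference was tested. Shares are given with a 95% Wilson interval, which covers counting error only and treats peaks as independent, although peaks of 1 gene are not. The depth behind a peak is unknown, and the list does not separate an unmethylated RNA from one that was not expressed.

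Of the 96 genes, 18 had a peak and 78 had none. This was 18.8% (95% Wilson interval 12.2 to 27.7%), against 40.8% of all protein-coding genes. The comparison was not matched by strand. Minus-strand genes were 5306 of the 8176 protein-coding genes with a peak, and all 47 clustered protocadherins of known strand are on the plus strand. The genes with a peak were unevenly spread over the family. FAT, DCHS and CELSR genes had a peak in 6 of 9 cases (66.7%, 35.4 to 87.9%). Protocadherins outside the clusters had one in 7 of 13 (53.8%, 29.1 to 76.8%). Both intervals include the 40.8% of all protein-coding genes. The CDH genes had one in 4 of 21 cases (19.0%, 7.67 to 40.0%), and the clustered protocadherins in 1 of 53 (1.89%, 0.334 to 9.94%). Outside the clusters, 17 of 43 genes had a peak (39.5%), close to the share of all protein-coding genes.

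The 18 genes carried 80 peaks on 9 chromosomes, 4.44 ± 3.79 per gene (mean ± SD over genes) with a median of 4. All 8176 protein-coding genes with a peak had 2.1 ± 1.5, with a median of 2. As for genes with 5 or more peaks, there were 8 of 18 (44.4%, 24.6 to 66.3%), against 6.3% of all protein-coding genes with a peak. Peak numbers were not scaled by exon length, which was not used here. The strength of the peaks was close to the rest of the list, as 45 of 80 (56.2%, 45.3 to 66.6%) reached the median score of the list, 5.2e-08 or smaller, against 52.7% of all protein-coding peaks. None of the 80 was among the 466 peaks whose score is listed as 0.

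**Figure D1:**
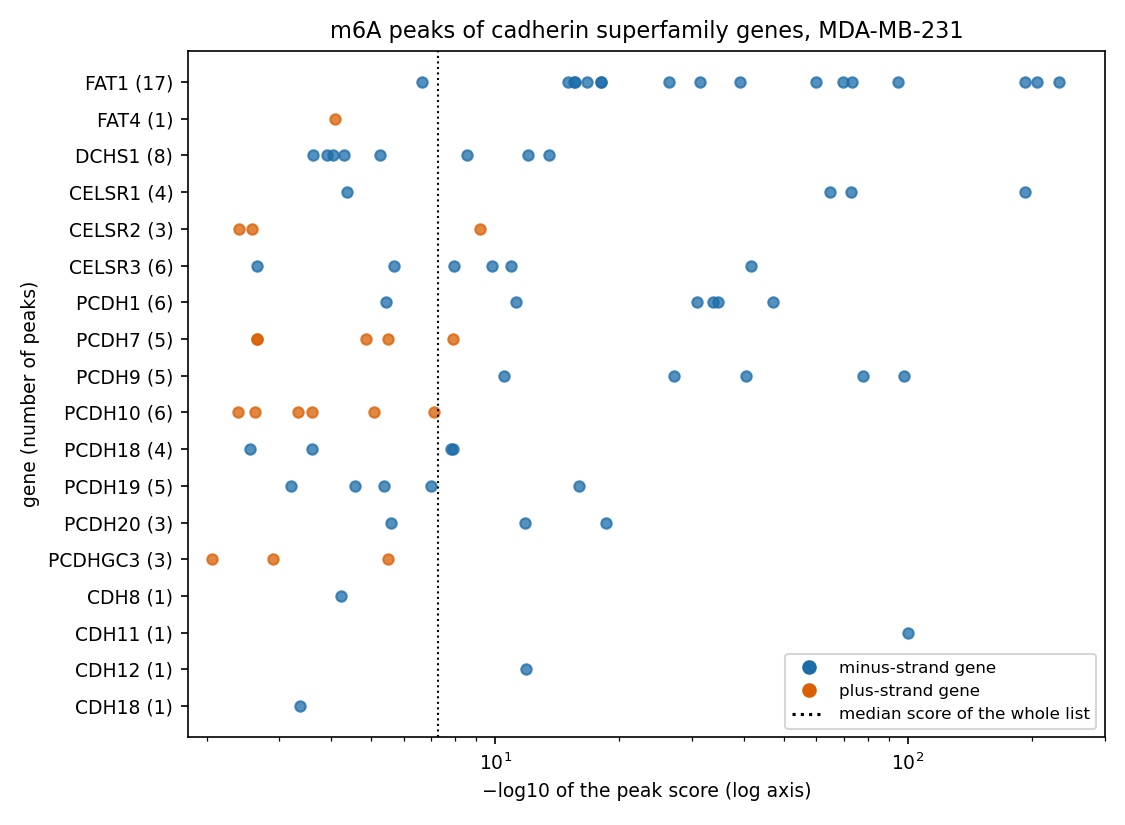
Each point is 1 peak of a cadherin superfamily gene, with −log10 of its score on a log axis and the number of peaks of the gene beside its name. FAT1, CELSR1, CDH11 and PCDH9 reach the smallest scores, whereas 2 of the 18 plus-strand peaks lie right of the dotted line, the list median score of 5.2e-08.

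FAT1 encodes a giant cadherin of the FAT family that acts as a receptor-like tumour suppressor in several epithelia. It is on the minus strand of chromosome 4 (ENSG00000083857.14, RefSeq span 186587794 to 186726696, 138.9 kb). It had 17 peaks, and only 6 protein-coding genes, itself included, had as many. The peaks covered 6945 bases in all, were 121 to 1081 bases long, and 16 of them reached the list median. They fell into separate stretches of the gene. The stretch nearest to the 5′ end held 4 peaks in 3120 bases (186706718 to 186709837), 16.86 to 19.98 kb from the 5′ end. It included a peak of 1081 bases in a single block (score 5e-74).

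A second stretch of FAT1 held 7 peaks in 4376 bases (186617160 to 186621535), 105.16 to 109.54 kb from the 5′ end. Peaks covered 56.4% of it, the gaps between them measured 59 to 509 bases, and the scores ran from 1e-192 to 2.2e-07. Both stretches thus held closely spaced but separately called peaks. The remaining 6 peaks lay singly or as a pair toward the 3′ end, and among them were the strongest of the whole family. A peak of 450 bases (186596548 to 186596997) had a score of 1e-233, and a peak of 781 bases (186588394 to 186589174, score 1e-206) had its midpoint 0.99 kb before the 3′ end. Among protein-coding genes with a peak, 7.5% had a peak as strong as the strongest of FAT1 or stronger.

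**Figure D2:**
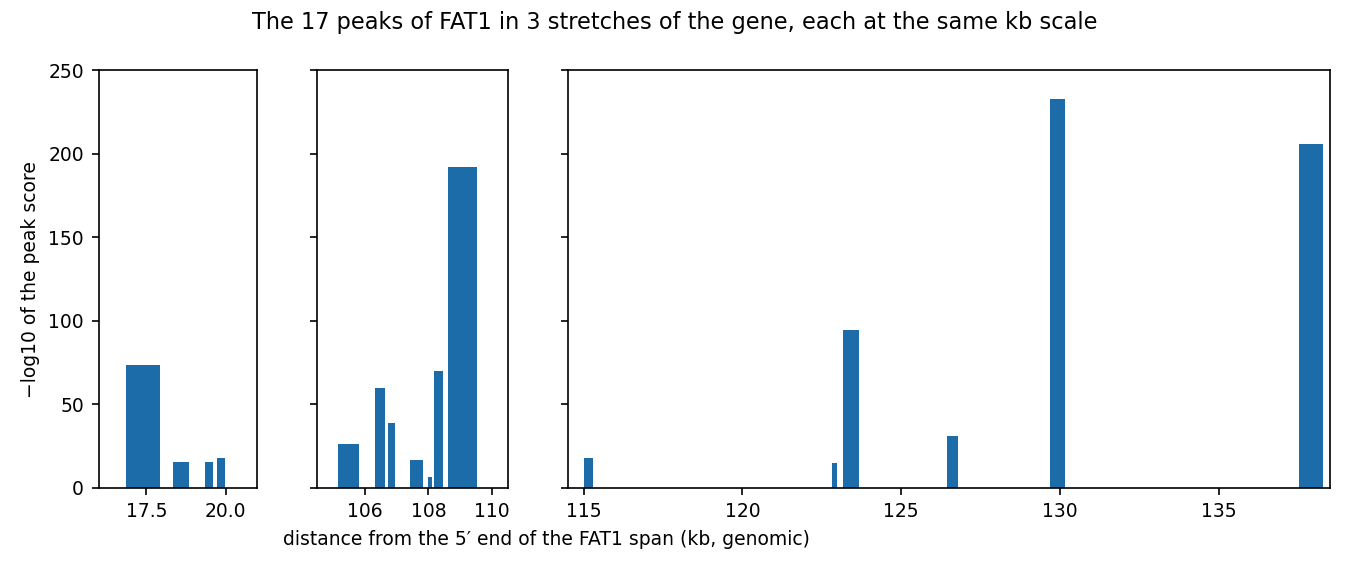
The 17 FAT1 peaks are drawn as bars from their first to their last base against the distance from the 5′ end of the gene span in kb, with −log10 of the score as height. The 3 panels show 3 stretches of the gene at the same scale. The lowest bar sits in the middle panel and the tallest 2, at 233 and 206, in the right one.

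The other FAT genes differed from FAT1. FAT4 had 1 weak peak of 181 bases (chromosome 4, 125491462 to 125491642, score 7.9e-05) with its midpoint 1.38 kb before the 3′ end, and FAT2 and FAT3 had none. DCHS1, a ligand of FAT4, had 8 peaks on chromosome 11 with a smallest score of 3.2e-14, of which 3 reached the list median. At the 3′ end of the 34.5 kb gene, 3 of them formed a run of 2515 bases, and 4 lay in a stretch of 1527 bases (6639915 to 6641441). The DCHS1 peak nearest to the 3′ end (6621569 to 6621659, score 8.9e-05) shared 88 of its 91 bases with a peak of DCHS1-AS1 on the opposite strand (score 0.00014). DCHS2 had no peak.

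All 3 CELSR genes had peaks at both ends of the gene. CELSR1, on the minus strand of chromosome 22, had 3 peaks in a run of 2940 bases that began 1.02 kb from the 5′ end, and 92.9% of that run lay in peaks. Its peak of 1500 bases (46534921 to 46536420, score 1.6e-65) was the longest of the family. The remaining peak of CELSR1 was its strongest, 511 bases long (46362603 to 46363113, score 1e-192) with its midpoint 1.68 kb before the 3′ end.

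CELSR3, on the minus strand of chromosome 3, had 5 peaks over the first 3.72 kb, with scores from 1.3e-11 to 0.0023. Its strongest peak was again the last, 660 bases in 2 blocks with a score of 2.5e-42 and a midpoint 2.82 kb before the 3′ end. CELSR2, on the plus strand of chromosome 1, had 2 peaks of 61 bases within 3.27 kb of the 5′ end (scores 0.0027 and 0.004). The other CELSR2 peak, of 331 bases (score 6.9e-10), had a midpoint 1.12 kb before the 3′ end. In each of the 3 genes the smallest score therefore belonged to the peak nearest to the 3′ end.

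Among non-clustered protocadherins, PCDH7, PCDH9, PCDH10, PCDH18 and PCDH19 showed their peaks mainly at the other end. PCDH9, a delta-1 protocadherin expressed in brain, spans 927.5 kb on chromosome 13. All 5 of its peaks lay in the first 5.35 kb, the outermost reaching past the 5′ end of the span, and 4 of them formed a run of 3569 bases (67224983 to 67228551) with 83.3% of its bases in peaks. The strongest, of 1111 bases, had a score of 2.5e-98, and all 5 reached the list median. PCDH7, another delta-1 gene, spans 426.4 kb on chromosome 4 and had its 5 peaks in the first 3.97 kb. Its smallest score was 1.3e-08, and that peak alone reached the list median.

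The delta-2 protocadherins followed the same layout. PCDH10 on chromosome 4 had 6 peaks of 61 to 241 bases in the first 3.26 kb of its 59.3 kb, all with scores above the list median, from 7.6e-08 to 0.0042. The first of them started at the first base of the RefSeq span. PCDH19 on chromosome X, a gene of inherited epilepsy, had 5 peaks in the first 7.68 kb of 118.6 kb, and the strongest measured 1198 bases (100408448 to 100409645, score 1e-16). By subfamily, 11 of the 16 delta-1 peaks and 14 of the 15 delta-2 peaks lay within 10 kb of the 5′ end. PCDH18 had 3 peaks in the first 2.28 kb and 1 of 511 bases (137520986 to 137521496, score 1.6e-08) nearer to the 3′ end of a 13.6 kb gene.

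**Figure D3:**
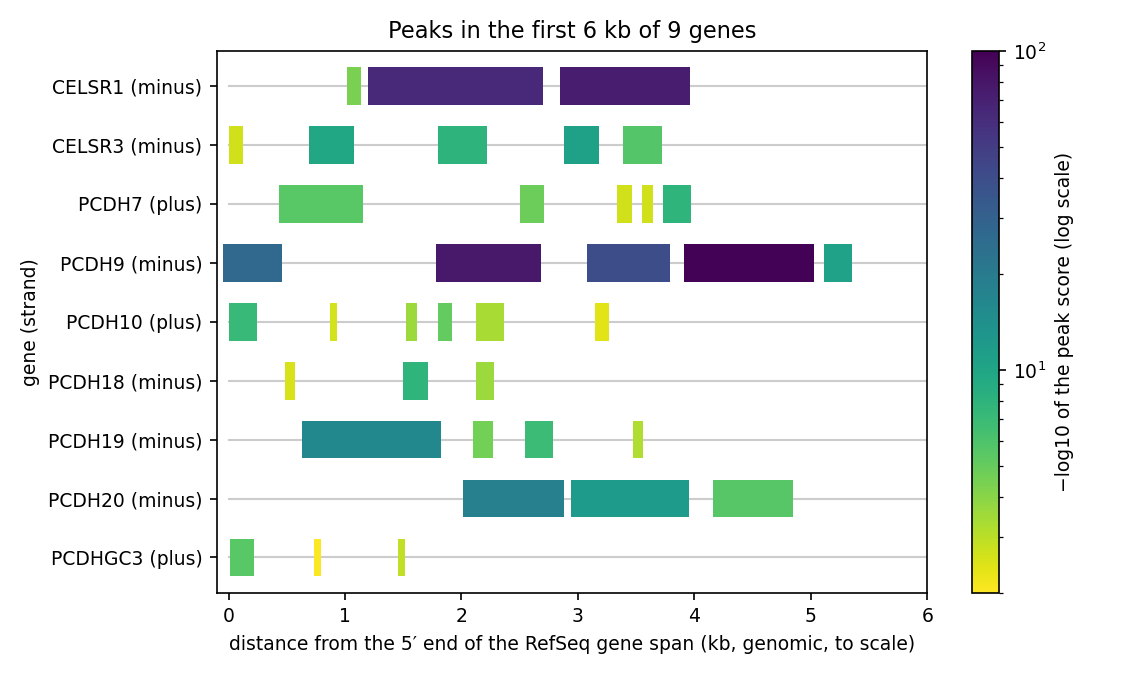
Single-block peaks in the first 6 kb of the RefSeq span of 9 genes, drawn to scale as boxes and coloured by −log10 of the score on a log scale. CELSR1, PCDH9 and PCDH20 show mostly long boxes, whereas PCDH10 shows 6 short ones and PCDHGC3 shows 3.

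PCDH1, a delta-1 protocadherin of epithelia, had 6 peaks on chromosome 5, of which 5 reached the list median. A set of 4 formed a run of 2952 bases (141863134 to 141866085) with scores from 7.9e-48 to 6.3e-12. Unlike in the other delta-1 genes with peaks, this run lay 12.32 to 15.28 kb from the 5′ end of the span, and 1 of the 6 peaks had its midpoint within 10 kb of it. PCDH20 on chromosome 13 had 3 peaks of 687, 1016 and 867 bases in a run of 2837 bases, 90.6% of which lay in peaks. Each of these peaks was listed a second time on the same strand under ENSG00000197991, a gene ID without a symbol in the name table used. The borders of the copies differed by 0 to 4 bases, and the scores were 2.5e-06 for both first peaks, 1.6e-12 and 6.3e-13 for the second, and 2.5e-19 and 4e-20 for the third. The PCDH20 peaks are thus 1 set of regions under 2 gene IDs. PCDH8, PCDH11X, PCDH11Y, PCDH12, PCDH15 and PCDH17 had no peak.

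Repeated peaks were looked for in the 3 protocadherin clusters, which occupy 726.8 kb of chromosome 5 (140786140 to 141512975). None of the 15 PCDHA and 16 PCDHB genes had a peak, and of the 22 PCDHG genes only PCDHGC3 had any. PCDHGC3 (ENSG00000240184.7) had 3 peaks of 211, 61 and 61 bases between 141475977 and 141477477, with scores of 3.2e-06, 0.0087 and 0.0013, all above the list median. No 2 of the 3 shared a base, so the listed peaks and the distinct regions were both 3. With only 1 gene ID of the clusters in the list, no region could be repeated under several of them. All RefSeq spans of the 22 PCDHG genes end at the same base, 141512975, and the last of them to start does so at 141489081. No peak was listed between these positions, where the shared 3′ exons lie. The PCDHA genes likewise end together, at 141012347, and no peak was listed after the start of the last of them at 140966476.

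The 3 PCDHGC3 peaks lay in the first 1.51 kb of that gene and were listed for PCDHGC3 alone. This stretch lies inside the spans of 20 of the PCDHG genes, PCDHGC3 included. Spans contain introns, so this does not place the peaks in exons of the other genes, and exons were not mapped here. Elsewhere the list gives the same bases to several gene IDs. It held 445 sets of same-strand peaks of 2 or more IDs that shared at least 90% of the shorter peak, with 906 peaks in all (4.47%), and the 3 PCDH20 peaks were the members in them. With a single cluster gene ID in the list, the clusters could hold no such set among their genes. Why the other cluster genes had no peak was not tested. The other peaks in the cluster region were 3 of TAF7, a gene for a subunit of the general transcription factor TFIID, on the minus strand.

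Among the CDH genes, 4 type II classical cadherins had 1 peak each, all on the minus strand. CDH11, a mesenchymal cadherin, had a single block of 840 bases on chromosome 16 (64947019 to 64947858) with a score of 1e-100, and 17.9% of protein-coding genes with a peak had a peak at least as strong. CDH12 (420 bases, score 1.3e-12), CDH18 (211 bases, 0.00044) and CDH8 (151 bases, 6e-05) were weaker. Of these peaks, 3 lay near the 3′ end, with midpoints 3.69 kb before it in CDH11, 1.23 kb in CDH12 and 1.99 kb in CDH18. The CDH12 and CDH18 genes span 1102.7 and 1104.4 kb. The CDH8 peak lay 254.08 kb from the 3′ end. The other 9 type II genes, the type I genes CDH3, CDH4 and CDH15, and CDH13, CDH16, CDH17, CDH23 and CDH26 had none.

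**Figure D4:**
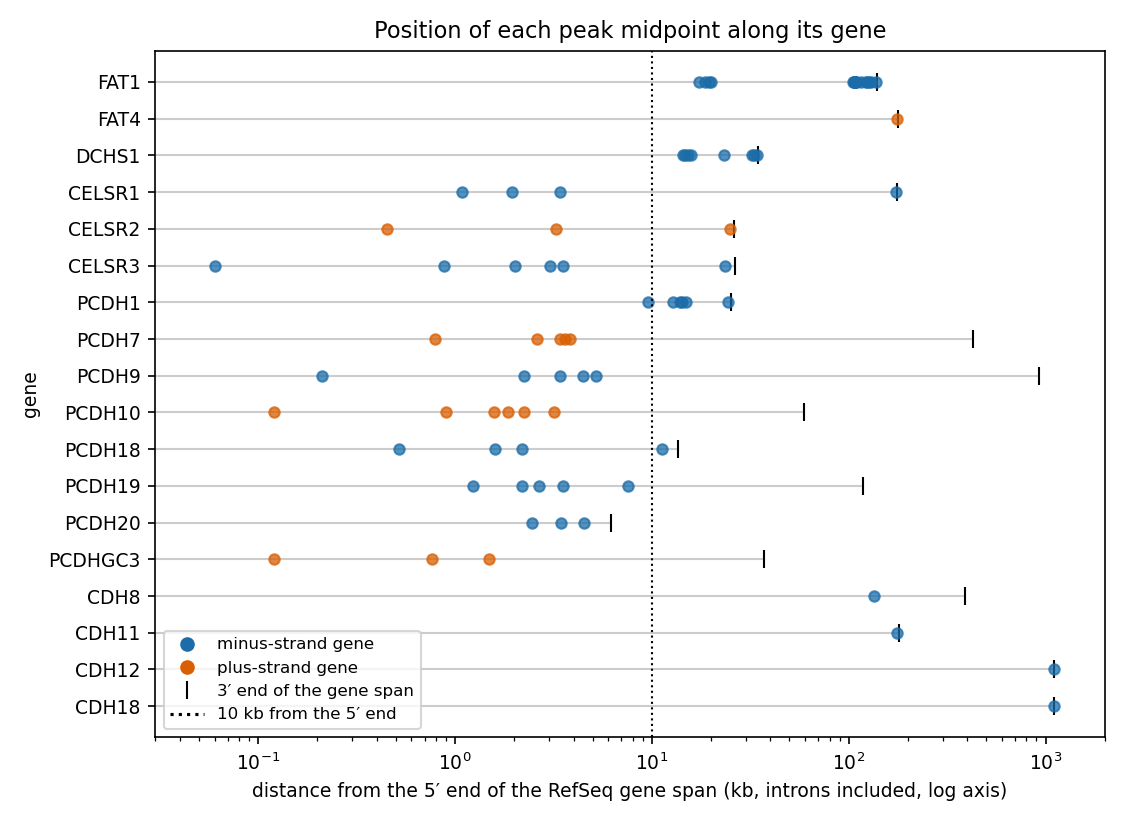
Midpoint of each peak against the distance from the 5′ end of the RefSeq gene span, in kb on a log axis, with the 3′ end of each span as a black tick. PCDH7, PCDH9, PCDH10, PCDH19 and PCDHGC3 have all points left of the dotted line at 10 kb, whereas FAT4, CDH11, CDH12 and CDH18 have their only point at the 3′ end.

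To set these positions beside the other genes, peaks were counted within 10 kb of each end of genes that span at least 20 kb. In the cadherin superfamily 35 of 73 peaks (47.9%, 95% Wilson interval 36.9 to 59.2%) lay near the 5′ end, against 18% of all protein-coding peaks. Near the 3′ end there were 13 of 73 (17.8%, 10.7 to 28.1%), against 51.8%. These shares count peaks, so genes with many peaks weigh most. By gene, FAT1, FAT4, DCHS1, CELSR1, CELSR2, CELSR3, PCDH1, CDH11, CDH12 and CDH18 each had a peak near the 3′ end. Of the genes of this span, PCDH7, PCDH9, PCDH10, PCDH19, PCDHGC3 and CDH8 had none there. A share by gene was not taken over all protein-coding genes. Without FAT1, the near-5′ share of the family was 62.5%. These are distances along the genome with introns included, and RefSeq spans can begin at an alternative first exon.

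Peaks of the family lay in few blocks and close together. In 1 block lay 76 of 80 peaks (95%, 87.8 to 98.0%), against 81.5% of protein-coding peaks, so that only 4 were divided by an intron in the gene models used for calling. Single blocks of at least 500 bases accounted for 20 peaks (25.0%, 16.8 to 35.5%) of 10 genes, against 11.6%. Of the 20, 6 measured 1000 bases or more, in CELSR1, PCDH19, PCDH9, FAT1 and PCDH20. A neighbour of the same gene within 1000 bases was present for 59 of 80 peaks (73.8%, 63.2 to 82.1%), against 44.2%. Among genes with 3 or more peaks, the shares were 78.7% (68.1 to 86.4%) and 63.5%.

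Runs of 3 or more peaks, each within 1000 bases of the next, were found in 12 of the 18 genes (66.7%, 43.7 to 83.7%), against 10.7% of protein-coding genes with a peak. Runs of 4 or more were found in 8 genes (44.4%), against 3.63%. Both comparison shares include genes with too few peaks for such a run, so they mix peak number with spacing. Over all protein-coding genes, 2280 had 3 or more peaks and 872 had a run of 3 or more. For 4 or more, the numbers were 1080 and 297. Among the members with 3 or more peaks, CELSR2 alone lacked a run of 3 or more. Among those with 4 or more peaks, CELSR1 and PCDH18 lacked a run of 4 or more. The longest runs were the 7 peaks of FAT1, the 6 of PCDH10 and the 5 of CELSR3. The share of a run that lay in peaks ranged from 22.2% in PCDHGC3 to 92.9% in CELSR1. Runs were measured along the genome, so an intron inside a run counts as not covered.

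**Figure D5:**
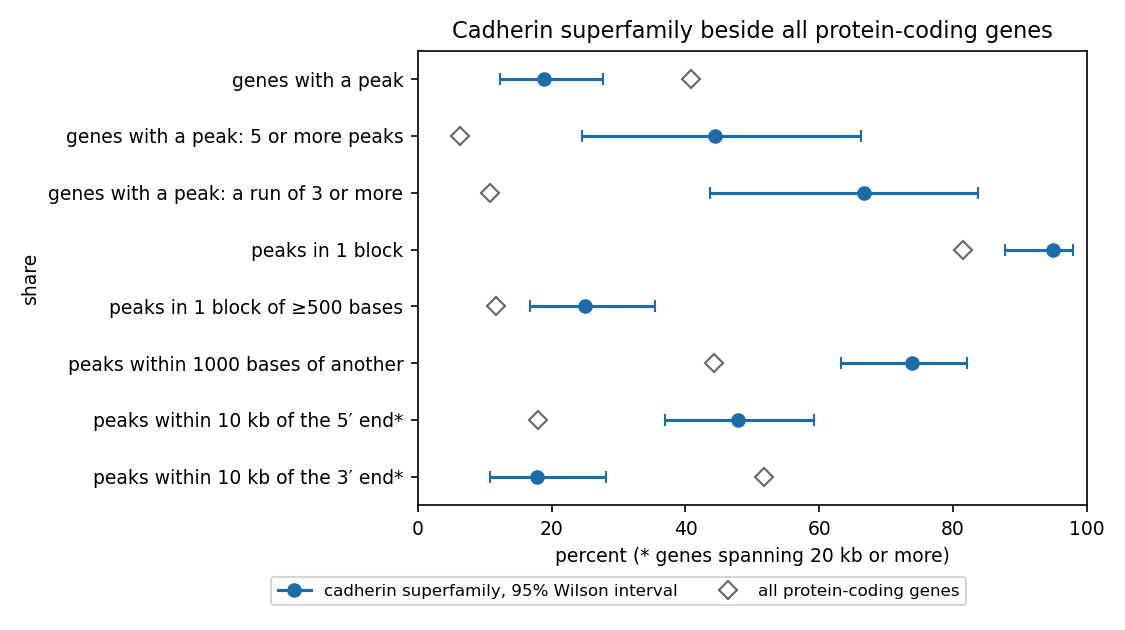
Shares in the cadherin superfamily (filled points, 95% Wilson interval) beside those over all protein-coding genes (open diamonds), in percent. The first 3 rows count genes, with the run share taken over all genes with a peak, and the other rows count peaks. Genes with a peak (18.8 against 40.8%) and peaks near the 3′ end (17.8 against 51.8%) lie left of the diamonds and the other shares lie right of them.

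By strand, 62 of the 80 peaks (77.5%, 67.2 to 85.3%) were on minus-strand genes, close to the 72.2% of all protein-coding peaks. The 13 minus-strand genes had 4.77 peaks each and the 5 plus-strand genes, CELSR2, FAT4, PCDH7, PCDH10 and PCDHGC3, had 3.6. The median score was 1.7e-14 on the minus strand and 0.00036 on the plus strand, and the median length 345.5 and 121 bases. The same split ran through the whole list, with 2.33 and 1.66 peaks per protein-coding gene, median scores of 4e-12 and 1.5e-05 and median lengths of 241 and 181 bases on the minus and plus strands. Of the 45 peaks that reached the list median 43 were on the minus strand (95.6%, 85.2 to 98.8%), against 83.4% of such protein-coding peaks. The exceptions were 1 peak of PCDH7 and 1 of CELSR2. All 47 clustered genes with a strand in the RefSeq table used are on the plus strand. For PCDH7, the 720-base peak nearest to the 5′ end overlapped a peak of ENSG00000286596 on the opposite strand over 681 bases, and both scores were 3.2e-06. The list alone does not settle which strand this signal came from, and the peak was kept in all counts for PCDH7. Without the 2 member peaks that overlap a peak on the opposite strand, the minus-strand share was 78.2%.

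The RefSeq table of transcript starts (GRCh38.p14) covered 12 of the 18 genes. In 3 of them a peak reached the first 30 transcribed bases, which are shown to give the sequence at these peak borders. Capitals mark bases inside the peak.
CELSR3 (chr3:48662857-48662886, minus strand): GTTGGAGCGGCGGGAGGCGGCAGCAGCGTC
PCDH9 (chr13:67230307-67230336, minus strand): AGTTCAGAGAGAGGAGAGGGAGAAGGAGAG
PCDHGC3 (chr5:141475966-141475995, plus strand): agagactgaacAGCCGGCGAGCAAATCAAC
The RRACH context of m6A (A or G, A or G, A, C, then A, C or T) was searched on the transcribed strand. It is absent from the CELSR3 and PCDH9 stretches and occurs in 2 places in that of PCDHGC3, as agact and gaacA, ending at or before the first base of the peak. It was present in 26.8% of 34943 such stretches of RefSeq. The remainder of each peak, and the sequence under the other peaks, was not analysed here.

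The intracellular partners of cadherins were read from the same list. Of 12 catenin and plakophilin genes, 6 had a peak (50%), near the 40.8% of all protein-coding genes. CTNND1 (p120-catenin, which stabilises cadherins at the membrane) had 1 peak with a score of 1e-31, and PKP2 (plakophilin 2, of desmosomes) had 6 with a smallest score of 5e-53. PKP4 (1 peak, 6.3e-14) and ARVCF (2 peaks, 3.8e-08) also reached the list median, whereas CTNNB1 (β-catenin, 7.8e-06) and CTNNA1 (α-catenin, 0.00068) had 1 weaker peak each. No peak was listed for CTNNA2, CTNNA3, CTNND2, JUP, PKP1 and PKP3. VIM, a mesenchymal marker, had 1 peak (5e-27) and EPCAM, an epithelial marker, had none.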

How the data were processed

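m6A-seq was performed by the authors on 2 input and 2 IP libraries of MDA-MB-231 poly(A) RNA, made with a stranded kit. Reads were aligned by the authors with STAR to GENCODE v33 (hg38 per the labels), allowing reads with several alignments, and peaks were called with exomePeak and kept by fold enrichment and FDR. The deposited list is a BED file with 1 score per peak, read as the p-value of the peak caller, and with positions and block numbers; per the file headers no library is named. How the replicates were combined is not stated, and depth and error per library are unknown.

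Gene IDs were matched to symbols without their version (10103 of 10140), and symbols to RefSeq GRCh38.p14 for biotype and span. All 96 members had a symbol in the name table. Peaks were compared by shared bases of their blocks (at least 1). A run is a set of peaks of 1 gene ID with gaps of at most 1000 bases. Strand for genes without a peak was available for 79.0% of protein-coding genes, under the 80% needed, so that a check of peak frequency by gene strand was void and is not reported. Python 3.11.15, pandas 2.3.3 and SciPy 1.17.1 were used, and functions were tested on simulated peaks. Described in full were the 8 genes outside the clusters with most peaks, those with single blocks of at least 500 bases, and the clustered genes. Related lists were catenins, other genes with cadherin repeats, planar polarity partners and 2 state markers. The measures of runs and of distance to gene ends were added after values had been seen. Members, lists and settings were chosen with earlier results of these data known.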

Additional observations from a re-analysis of the deposited data

How the results depend on the processing

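Of 28 alternatives, 20 left the count within 1.5 times, or the share inside its interval, and 8 did not. Among the 20, some could not change a result, because member peaks shared no base with each other. These were merging overlapping peaks, counting genes that share peak bases once, and the stricter overlap rules for cluster regions. Restricted to the list median score or smaller, 45 peaks of the 80 were kept, of which 95.6% were on the minus strand, and the clustered protocadherins then had 0 regions in place of 3. Single-block peaks numbered 6 at 1000 bases or more and 36 at 300 bases or more. The share over all protein-coding peaks was not taken at these lengths, so the comparison made at 500 bases was not repeated. Chosen after seeing the data, a gap of 500 bases gave 56.2% of peaks with a neighbour (36.2% of protein-coding peaks), and a window of 20 kb gave 64.4% near the 5′ end (27.1%). Without FAT1 the latter share was 62.5% in the 10 kb window. Genes with a peak numbered 13 under the score restriction, for which no share over all protein-coding genes was taken. They numbered 17 in the first part of the list, since the 5 PCDH19 peaks stand in a second part where the chromosomes start again. Merging overlapping peaks left all 80, an outcome fixed by the lack of shared bases. The cause of these changes was not tested here, and unknown depth limits what a missing peak means.

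No paired analysis was possible because both replicates share 1 score per peak, and no replicate was left out.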

Other observations

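Planar polarity partners of the FAT, DCHS and CELSR proteins had a peak in 8 of 11 genes (72.7%, against 40.8% of all protein-coding genes), with 16 peaks. No interval was taken for this share of few genes. FJX1, the human homologue of the kinase four-jointed that acts on FAT and DCHS cadherin repeats, had 4 peaks (smallest score 6.3e-17) and DVL1 had 4 (1.3e-34). PRICKLE1 had 2 (1e-100), the longer of 1615 bases, and PRICKLE2 had 2 (1.6e-17). FZD6 (7.9e-11), DVL3 (2.6e-10), FZD3 (0.004) and SCRIB (0.0046) had 1 each, and VANGL1, VANGL2 and DVL2 had none.

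Of 18 other genes with cadherin repeats, CDH1 and CDH2 included, 8 had a peak (44.4%), with 12 peaks of which 75% lay in 1 block. Both shares were near those of all protein-coding genes (40.8%) and their peaks (81.5%). Among these 18, CLSTN1 had the smallest score (2 peaks, 1e-268). CDH2, the cadherin of mesenchymal cells, had 1 peak (3.2e-39) and CDH1, that of epithelia, had none. Among desmosomal cadherins, DSC2 had 3 peaks (4e-12), DSC3 had 2 (0.00033) and DSG2 had 1 (0.00018). CLSTN3 (7.9e-11), CDHR1 (7.9e-05) and CDHR2 (0.0019) had 1 each.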
